A study of Mus musculus with 6 samples.

Results

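The 9 genes described here encode transcription factors of the lateral plate and of the visceral mesoderm it gives rise to: Foxf1, Foxf2, Hand1, Tbx20, Gata4, Gata5, Gata6, Nkx2-3 and Barx1. They were chosen by name. Named probes covered 18702 genes, and all 9 were among them through the platform annotation. They had 12 of the 34967 gene probes of the array, since Foxf1 (listed as Foxf1a in the array files), Tbx20 and Gata6 had 2 each. Their expression was compared between 3 Fkbp8 mutant samples (replicates a, b and c) and 3 wildtype samples (replicates d, e and f) from crosses of heterozygous carriers. The tissue was the part of the mouse embryo just behind the forelimb bud at E9.5, with 1 CodeLink array of 1 colour per sample. The sample labels do not describe the allele, and the header of mutant c's array names its sample a null. For mutant a the source label is in the plural, so whether it was a pool is not settled. Nothing in the labels names separate litters, so p-values speak of the spread among these samples alone.

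Lateral plate mesoderm lies on both sides of the trunk and splits into a somatic layer, which lines the body wall and forms limb mesenchyme, and a splanchnic layer, which wraps the gut tube and gives rise to smooth muscle, mesenchyme of the gut, spleen and lung, and the heart. Foxf1 and Foxf2 are forkhead factors of the splanchnic layer that answer hedgehog ligands secreted by the neighbouring endoderm. GATA4, GATA5 and GATA6 are zinc finger proteins that bind GATA sequences and act in heart, endoderm and gut mesenchyme. HAND1 (basic helix-loop-helix) and TBX20 (T-box) act in lateral plate and heart, NKX2-3 in gut mesenchyme and spleen, and BARX1 in stomach mesenchyme.

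The arrays carried the signal of the labelled genotype, while the tissue was checked only weakly. Between 57.6% and 61.8% of gene probes per array were above background, which is the scanner software's mark of good or saturated, with the fewest in mutant c. All 18 tailbud, presomitic and posterior Hox genes of the list used as a tissue check were above the limit for testing. Of the 34967 gene probes 21688 were, and of the 18702 named genes 13360 had such a probe, so this is a weak check of the tissue. The probe of Fkbp8, which encodes a mitochondrial FK506-binding protein family member, was above background on all 3 wildtype arrays and on 0 of 3 mutant arrays. Genes of the Y chromosome were higher in the mutants and Xist was higher in the wildtypes (without overlap between the groups for 5 of 5 sex-linked genes), so genotype and sex-linked expression cannot be told apart for any value below. Values are log2 intensities after background correction and quantile normalization, on which 1 unit is a doubling, and the number of arrays limits their precision.

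None of the 9 genes changed between genotypes by the test across all probes. In limma with Benjamini-Hochberg adjustment, 0 of 12 member probes passed an adjusted p of 0.05 (smallest 0.364, Foxf2), where 26 of 21688 tested probes did (0.12%). At an unadjusted p under 0.05 there was 1 member probe, that of Foxf2, against 12.2% of all probes tested. The mutant and wildtype values did not overlap for 2 of 12 member probes, against 19.7% of all probes, and these were Foxf2 (higher in mutants, as for 11.2% of all probes) and Barx1 (lower, as for 8.56%). With 1 probe per gene, the brightest, 6 of the 9 genes had a positive and 3 a negative log2 fold change. Over all 13360 genes tested 53.2% were positive. The median was 0.02 over the members and 0.01 over all genes tested. A p above the threshold does not show equal levels, so the 95% intervals matter: over the 12 probes they ran from -0.46 to 0.40, or from 0.725-fold to 1.32-fold. Whole tissue was measured, so fewer cells of a type and less RNA per cell cannot be told apart.

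**Figure D1:**
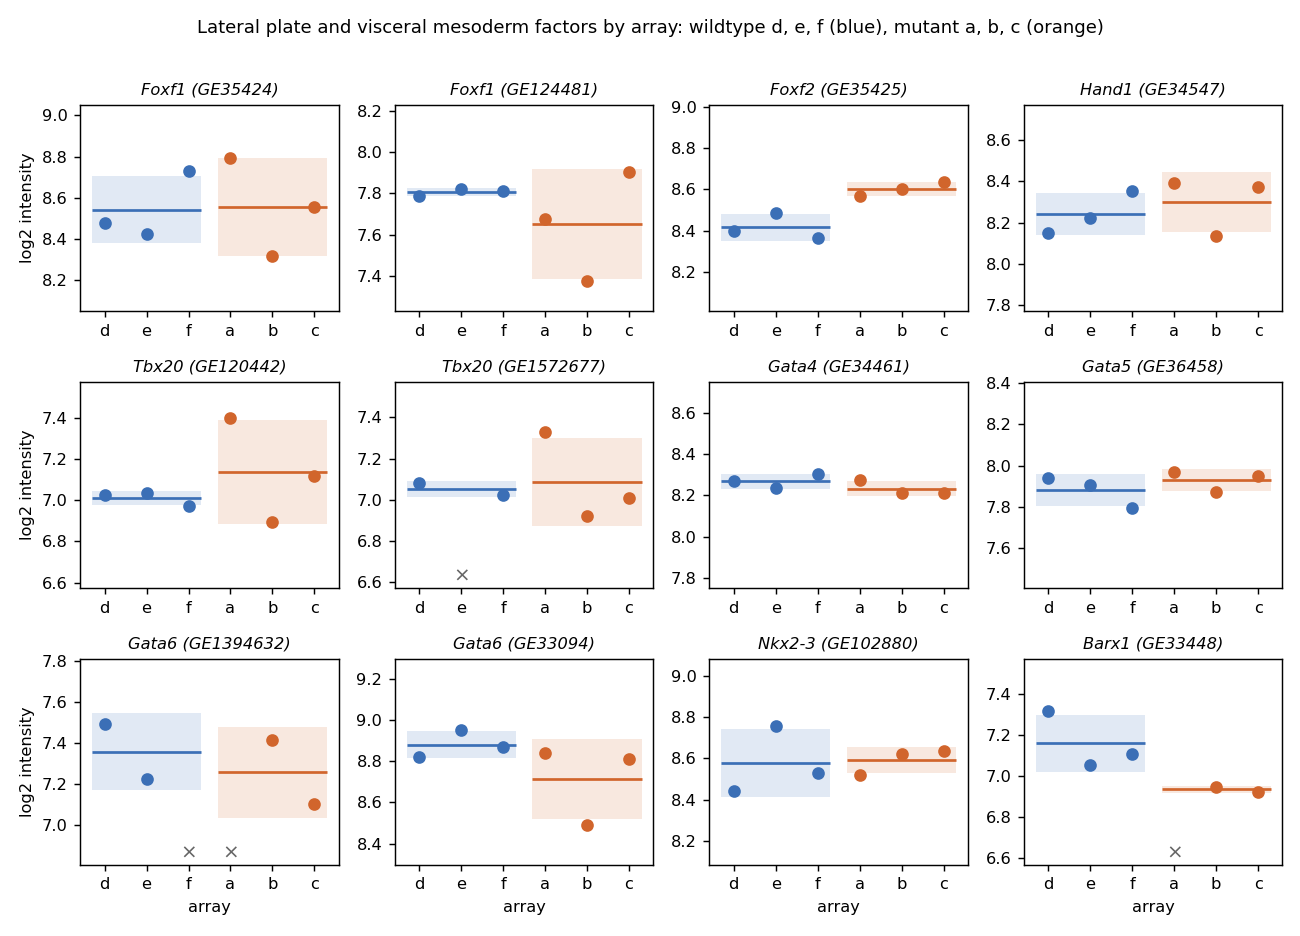
Log2 intensity (y axis) of the 12 member probes on each array (x axis), wildtype in blue and mutant in orange, with the group mean (line) and SD (shaded, n = 3, or 2 where a spot is missing); a cross marks a spot left out as irregular, and every panel spans 1 log2 unit. The groups do not overlap for Foxf2 and Barx1 and overlap at the other 10 probes.

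Foxf1, the main forkhead factor of splanchnic mesoderm, had close means in both genotypes at its brighter probe (8.54 in wildtypes, 8.56 in mutants). At GE35424 the log2 intensity was 8.48, 8.42 and 8.73 in wildtypes d, e and f and 8.79, 8.32 and 8.56 in mutants a, b and c. The highest and the lowest of the 6 values were thus both mutant arrays, and the groups overlapped fully. The log2 fold change was 0.01 (SE 0.13, 95% interval -0.29 to 0.31, limma adjusted p = 0.977). Its dimmer probe GE124481, designed on a cDNA end sequence of embryonic tissue, read 7.79, 7.82 and 7.81 in wildtypes and 7.68, 7.38 and 7.90 in mutants. There the wildtypes were tight (SD 0.02) and the mutants spread on both sides of them (SD 0.27), and the log2 fold change stood at -0.15 (SE 0.12, limma adjusted p = 0.643). Without mutant b that value was -0.02, and without mutant c it was -0.28. Mutant b was the lowest array at both probes. In the gene order of GRCm38.p6, Foxf1 lies on chromosome 8 like Fkbp8, with 350 tested genes between them.

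Foxf2, the second forkhead gene of gut mesenchyme, had the smallest p among the members. Its log2 intensity was 8.40, 8.49 and 8.36 in wildtypes d, e and f and 8.57, 8.60 and 8.64 in mutants a, b and c. Every mutant value lay above every wildtype value, and the spread within each group was small. The mean was 8.42 ± 0.06 (SD, n = 3) in wildtypes and 8.60 ± 0.04 (SD, n = 3) in mutants, a log2 fold change of 0.19 (SE 0.07, 95% interval 0.02 to 0.35) or 1.14-fold. It did not pass after adjustment (limma adjusted p = 0.364, unadjusted p = 0.0324), and 1930 of the 21688 probes had an unadjusted p as small or smaller. The exact two-sided permutation test gave p = 0.1, the smallest that 3 against 3 can give.

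The sequences before the start sites of Foxf2 and Barx1 are shown because they are the members whose groups did not overlap. Each runs 5′ to 3′ over the 250 bases before the RefSeq start, on the plus strand of GRCm38.p6, at chr13:31625566-31625815 for Foxf2 and chr13:48662786-48663035 for Barx1. Capitals mark the GC box letters GGGCGG on either strand, where neighbouring matches can share bases.
Foxf2: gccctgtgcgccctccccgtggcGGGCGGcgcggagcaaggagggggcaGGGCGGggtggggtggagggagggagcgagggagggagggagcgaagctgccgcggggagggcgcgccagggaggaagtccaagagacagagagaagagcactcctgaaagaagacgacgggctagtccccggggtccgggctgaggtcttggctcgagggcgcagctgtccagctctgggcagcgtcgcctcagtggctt
Barx1: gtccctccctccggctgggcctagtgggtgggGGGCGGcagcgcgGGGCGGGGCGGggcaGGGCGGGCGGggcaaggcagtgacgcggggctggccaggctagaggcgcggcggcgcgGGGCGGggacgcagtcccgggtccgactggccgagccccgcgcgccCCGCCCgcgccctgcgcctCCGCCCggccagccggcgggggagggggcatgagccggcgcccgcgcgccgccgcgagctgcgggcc
The RefSeq table held such windows for 5 of the 9 members (also Tbx20, Gata5 and Nkx2-3). The GC box was in 5 of 5 and in 32.7% of all 32851 windows of this length, with 2 matches before Foxf2 and 8 before Barx1. Their GC content ran from 60.0% (Nkx2-3) to 85.6% (Barx1), against a median of 52.4% over all windows. The Gli core GGGTGGTC, the binding letters of the hedgehog effectors, was in 0 of 5 (0.703% of all windows). The letters GATAA were in 0 of 5 (22.6%), the forkhead letters TGTTTA in 0 of 5 (12.0%) and the E-box CANNTG, which basic helix-loop-helix factors bind, in 3 of 5 (66.2%). These matches describe the letters of the windows and say nothing of binding in this tissue.

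The GATA genes had overlapping groups at all 4 of their probes, and Gata6 varied most among mutants. Gata4 read 8.27, 8.23 and 8.30 in wildtypes and 8.27, 8.21 and 8.21 in mutants. All 6 arrays agreed closely, and its interval was the narrowest of the 12 probes (log2 fold change -0.04, SE 0.07, 95% interval -0.20 to 0.12, limma adjusted p = 0.864). Gata5 read 7.94, 7.91 and 7.79 in wildtypes and 7.97, 7.87 and 7.95 in mutants, again with overlapping groups. Its log2 fold change was 0.05 (SE 0.08, 95% interval -0.13 to 0.22, limma adjusted p = 0.827).

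Gata6, which shares much of its role with Gata4 in heart and gut mesoderm, read 8.82, 8.95 and 8.87 in wildtypes d, e and f at its brighter probe GE33094. The mutants a, b and c read 8.84, 8.49 and 8.81, so that a and c lay close to the wildtypes and b lay below all other arrays. The log2 fold change was -0.17 (SE 0.11, 95% interval -0.41 to 0.07, limma adjusted p = 0.553), and without mutant b it was -0.05. At the dimmer probe GE1394632 the spots of mutant a and wildtype f were irregular and were left out. The remaining values were 7.49 and 7.23 in wildtypes d and e and 7.42 and 7.10 in mutants b and c, and here mutant b was not the lowest. The log2 fold change at this probe, from 2 arrays per group, was -0.10 (SE 0.15, limma adjusted p = 0.818).

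Hand1 and Tbx20, factors shared by lateral plate and heart, had overlapping groups. Hand1 read 8.15, 8.22 and 8.35 in wildtypes and 8.39, 8.13 and 8.37 in mutants. Mutants a and c were the highest arrays and mutant b the lowest. The log2 fold change was 0.06 (SE 0.10, 95% interval -0.16 to 0.28, limma adjusted p = 0.837). Tbx20 read 7.03, 7.03 and 6.97 in wildtypes and 7.40, 6.89 and 7.12 in mutants at its probe GE120442. Mutants a and c lay above all wildtypes and mutant b below them. The wildtype SD was 0.03 and the mutant SD 0.25. The log2 fold change was 0.13 (SE 0.12, 95% interval -0.15 to 0.40, limma adjusted p = 0.702), and it was -0.00489 without mutant a. The second Tbx20 probe, GE1572677, gave the same order of the mutants, at 7.33, 6.92 and 7.01 in a, b and c. Its wildtypes d and f read 7.08 and 7.02, with the irregular spot of e left out, and its log2 fold change was 0.03 (SE 0.13, limma adjusted p = 0.939). Both Tbx20 probes were dim, between 0.988 and 1.83 times the array median in the deposited values.

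Nkx2-3, a homeobox gene of gut mesenchyme and spleen, read 8.44, 8.76 and 8.53 in wildtypes and 8.52, 8.62 and 8.63 in mutants. Here the wildtypes spread more than the mutants, and the lowest and highest arrays were both wildtype. The log2 fold change was 0.02 (SE 0.10, 95% interval -0.21 to 0.24, limma adjusted p = 0.964).

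Barx1, a homeobox gene of stomach mesenchyme, was the member with the most negative log2 fold change. It read 7.31, 7.05 and 7.11 in wildtypes d, e and f and 6.95 and 6.92 in mutants b and c, with mutant a left out as irregular. Both measured mutants lay below all wildtypes, and the log2 fold change was -0.22 (SE 0.10, 95% interval -0.46 to 0.02, limma adjusted p = 0.433; exact two-sided permutation p = 0.2, where 2 against 3 can reach 0.1). With irregular spots kept, mutant a read 7.17, above the lowest wildtype (7.05), so the groups overlapped and the log2 fold change was -0.14 (limma adjusted p = 0.595). On the deposited values it was -0.40 (adjusted p = 0.472). The spot was near the array median in brightness (1.03 to 1.65 times it). An offset such as that of normexp draws log2 differences of dim probes toward 0. Without background correction the log2 fold change was -0.22 (limma adjusted p = 0.468). The part of the offset in the gap to the deposited values was not tested.

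**Figure D2:**
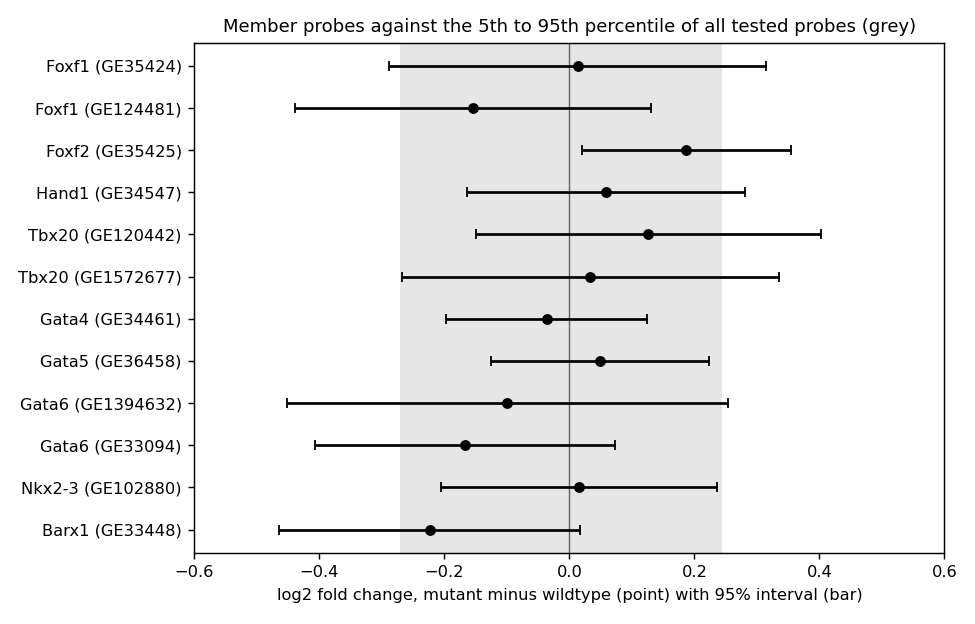
Log2 fold change, mutant minus wildtype (x axis), of each member probe (y axis), with its 95% limma interval (bar); the grey band is the 5th to 95th percentile over all 21688 tested probes (-0.27 to 0.24). All 12 points lie inside the band, and the interval of Foxf2 alone excludes 0 before adjustment.

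Several members shared an order among the mutant arrays. With the brightest probe per gene, mutant b was the lowest of the 6 arrays for 5 of 9 genes (Foxf1, Hand1, Tbx20, Gata4 and Gata6). Mutant a was the highest for 4 of the 8 genes measured on it (Foxf1, Hand1, Tbx20 and Gata5). For Gata4 mutant b was lowest by little (8.2093 against 8.2138 in c), and the dimmer Gata6 probe read higher in b than in c. The shares of all genes lowest in b or highest in a are not given here. Over the tested probes the mutant arrays correlated less with each other (r 0.984 to 0.988) than the wildtypes did (0.992 to 0.993). The members were higher in mutant c than in mutant b for 8 of 9 genes, where 50.8% of all genes tested were, and higher in mutant a than in b for 6 of 8, where 51.9% were. Foxf2 and Nkx2-3 ran the other way between a and b. The median difference between a and b was 0.18 over the members and 0.01 over all genes tested. The median difference between c and b was 0.08 over the members. Between wildtypes the member medians were -0.01 for d minus e, 0.04 for f minus d and -0.06 for f minus e. The SD was larger in mutants than in wildtypes at 8 of 12 member probes, and at 60.7% of all tested probes. The range over the mutant arrays exceeded the difference between group means for 7 of 9 members and for 79.5% of all genes tested, so in this the members were near the background. These orders describe single arrays and have no test.

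**Figure D3:**
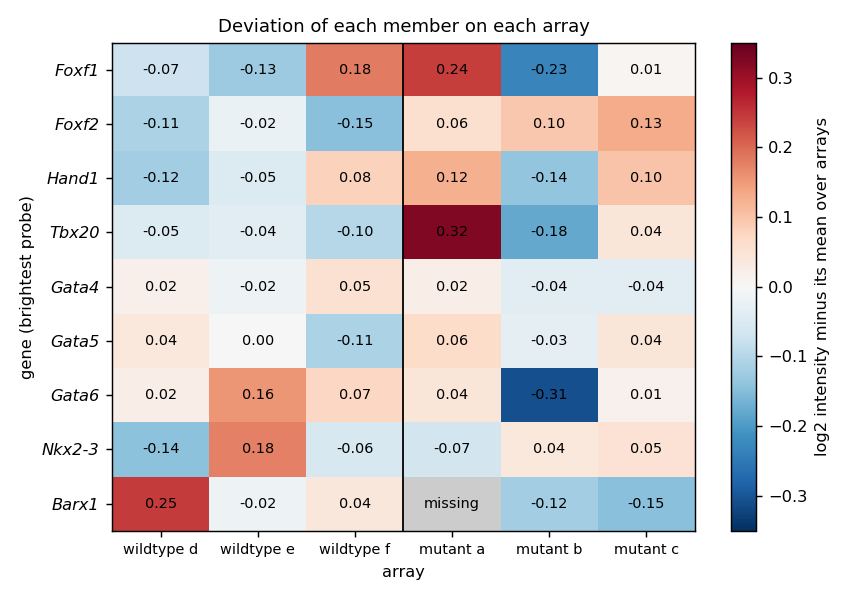
Deviation of each member's log2 intensity (brightest probe, y axis) from its mean over the arrays, for each array (x axis); red is above and blue below the mean, and grey marks the spot left out. Mutant b reads -0.23 for Foxf1, -0.18 for Tbx20 and -0.31 for Gata6, where mutant a reads 0.24, 0.32 and 0.04.

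Other lists deviated on the same arrays. On mutant b the median deviation from each gene's mean was -0.12 for the members, -0.18 for the posterior embryo list and -0.13 for the endoderm list, but -0.03 for the wider list of lateral plate genes and 0.25 for yolk sac and liver genes. On mutant a these medians were 0.06, 0.01, 0.03, 0.03 and -0.19. Between genotypes the posterior embryo list had 6 of 18 genes positive, where 53.2% of all genes tested were. Its median log2 fold change was -0.10. It had 0 genes past the threshold in limma, with 0 higher and 4 lower at an unadjusted p under 0.05. The amount of gut tube or flank tissue in each dissection is not given in the labels, and the part of these lists in the members' values was not tested.

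The wider set of lateral plate, splanchnic and gut mesenchyme genes also held no gene past the threshold. Of 31 listed genes 28 were tested, 0 passed in limma after adjustment, and 2 higher and 4 lower had an unadjusted p under 0.05. Their median log2 fold change was 0.02, with 16 positive and 12 negative. For this list and those below, the shares to compare are 12.2% of all probes at such a p and 53.2% of all genes positive. The first share counts probes where the lists count genes, and the same share over genes is not given here. The smallest p belonged to Tcf21, a factor of visceral and epicardial mesenchyme (0.22, SE 0.07, limma adjusted p = 0.299), and Tbx3, a T-box gene of lateral plate and limb (0.34, SE 0.11, limma adjusted p = 0.311). Next came the BMP ligand gene Bmp2 (-0.38, SE 0.13, adjusted p = 0.318) and Wnt5a, a ligand of elongating tissues (-0.46, SE 0.16, adjusted p = 0.331). Bmp4, a ligand made in lateral plate, stood at -0.08 (SE 0.11, adjusted p = 0.806).

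Among the closest relatives and cofactors of the members 8 of 13 were tested, with 0 past the threshold in limma and 1 at an unadjusted p under 0.05. That gene was Zfpm1, which encodes a GATA cofactor used in blood cells (0.30, SE 0.10, adjusted p = 0.295). Gata1, the erythroid GATA gene, came next (0.33, SE 0.15, adjusted p = 0.421). The erythroid list, which includes Gata1, had 15 of 16 tested genes positive, where 53.2% of all genes tested were. It had a median of 0.29 and 0 past the threshold in limma (4 at an unadjusted p under 0.05). Its summed deposited intensity, in units of the array median, was 1442 to 1783 in wildtypes and 1793 to 1872 in mutants. Among these, wildtype f stood apart at 1442, and wildtypes d and e were at 1748 and 1783. The Hbb-y spot of mutant a was missing, and its sum holds the mean of that probe over the other arrays instead. The median deviation of the erythroid genes overlapped between the groups, with wildtype d (0.09) above mutant c (0.01). The part of this list in the values of Gata1 and Zfpm1 was not tested. The probes of Hand2, Nkx2-5 and Nkx2-6 were above background on 0 of 6 arrays.

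Foxf1 and Foxf2 also read out hedgehog signal in gut mesenchyme, so the hedgehog list was set beside them. Of 13 ligand, receptor and response genes 12 were tested, and 0 passed in limma after adjustment (4 higher and 0 lower at an unadjusted p under 0.05). They included the receptor and target gene Ptch1 (0.48, SE 0.08, adjusted p = 0.136), the transcription factor and target gene Gli1 (0.23, SE 0.07, adjusted p = 0.282) and the antagonist gene Hhip (0.24, SE 0.10, adjusted p = 0.373). Over the list 8 of 12 genes were positive, with a median log2 fold change of 0.09. The summed deposited intensity, in which bright probes weigh most, was 126 to 136 in wildtypes and 155 to 161 in mutants. The median deviation of the list's genes overlapped between the groups, at -0.07, 0.11 and 0.09 in mutants a, b and c and at -0.07, -0.07 and -0.01 in wildtypes d, e and f. Foxf2, with 0.19, had a value near those of Gli1 and Hhip and below that of Ptch1, and 4 of the 12 list genes were negative. Of all tested probes, 90.6% had a lower value than Foxf2. Foxf1, with 0.01 and -0.15 at its probes, did not share the sign of Gli1 and Hhip at both. The differences between these genes were not tested. Ptch1 and Gli1 are also made in neural tube and somites, so in whole tissue their levels are not those of visceral mesoderm.

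Endoderm genes, which mark the tissue beside visceral mesoderm, had 14 of 19 tested. Foxa2, a factor of endoderm that floor plate and notochord also make, rose (log2 fold change 1.08, SE 0.14, limma adjusted p = 0.0403), and it was the 1 gene of the list past the threshold. Leaving out mutant b or c gave an adjusted p of 0.113 or 0.103, and leaving out wildtype d, e or f gave 0.228, 0.169 or 0.218. The adjusted p was 0.12 with the deposited values and 0.154 with background-subtracted values. Its log2 fold change stayed between 0.98 and 1.29 over the 16 alternatives run on it. The median of the list was -0.09, with 9 of 14 negative. Its summed deposited intensity overlapped between wildtypes (109 to 117) and mutants (98.1 to 122). Rbm47, made in gut epithelium, exceeded background on all 3 wildtype arrays and on 0 of 3 mutant arrays but did not pass (-0.44, SE 0.07, adjusted p = 0.107). At an unadjusted p under 0.05 there were 2 higher and 4 lower genes. Besides Foxa2 and Rbm47, the smallest p belonged to Pyy, a hormone gene of gut (-0.23, SE 0.08, adjusted p = 0.342), and Sox2, of foregut and neural tube (-0.50, SE 0.19, adjusted p = 0.356).

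Most heart muscle markers were not above background, which bears on Gata4, Gata6, Hand1 and Tbx20, genes that the heart also makes. Of 17 heart muscle genes on the array, 10 were above background on 0 of 6 arrays, among them Nkx2-5, Tnnt2, Myh6 and Myh7. Others were above background on all 6 arrays, among them Actc1, Myl7, Tnni1 and Myl4. Whether their signal came from heart muscle was not tested. The 7 tested genes had a median log2 fold change of 0.09, and they had 0 past the threshold in limma and 0 at an unadjusted p under 0.05. The list sum, over all 17 genes on the array, was 36.2 to 40.9 in wildtypes and 36.0 to 47.5 in mutants. Mutants a (45.9) and c (47.5) were the highest arrays, and mutant b (36.0) was lowest, close to wildtype f (36.2). The median deviation of the list's genes, which weighs each gene alike, had another order, with mutant b (0.02) above wildtypes d (-0.03), e (-0.02) and f (-0.07). The part of heart cells in those values was not tested.

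Genes of the coelomic lining, epicardium and septum transversum had 7 of 11 tested and 0 past the threshold in limma (2 higher and 1 lower at an unadjusted p under 0.05). The higher ones were Tcf21, given above, and Lhx2, of septum transversum (0.51, SE 0.11, adjusted p = 0.192), whose probe was above background on 1 of 3 wildtype arrays. The lower one was Aldh1a2, the retinoic acid synthesis gene of lateral plate and somites (-0.34, SE 0.15, adjusted p = 0.40). The list sum was 87.9 to 96.1 in wildtypes and 95.7 to 103 in mutants, ranges that overlapped. Extraembryonic genes (7 tested, median 0.02), yolk sac and liver genes (5 tested, median 0.14) and endothelial genes (11 tested, median -0.02) held 0 genes past the threshold in limma, with 0, 0 and 3 at an unadjusted p under 0.05. Among yolk sac and liver genes Apob, Alb, Amn and Cubn were above background on 0 of 6 arrays, and Trf, Afp and Fgb on all 6.

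**Figure D4:**
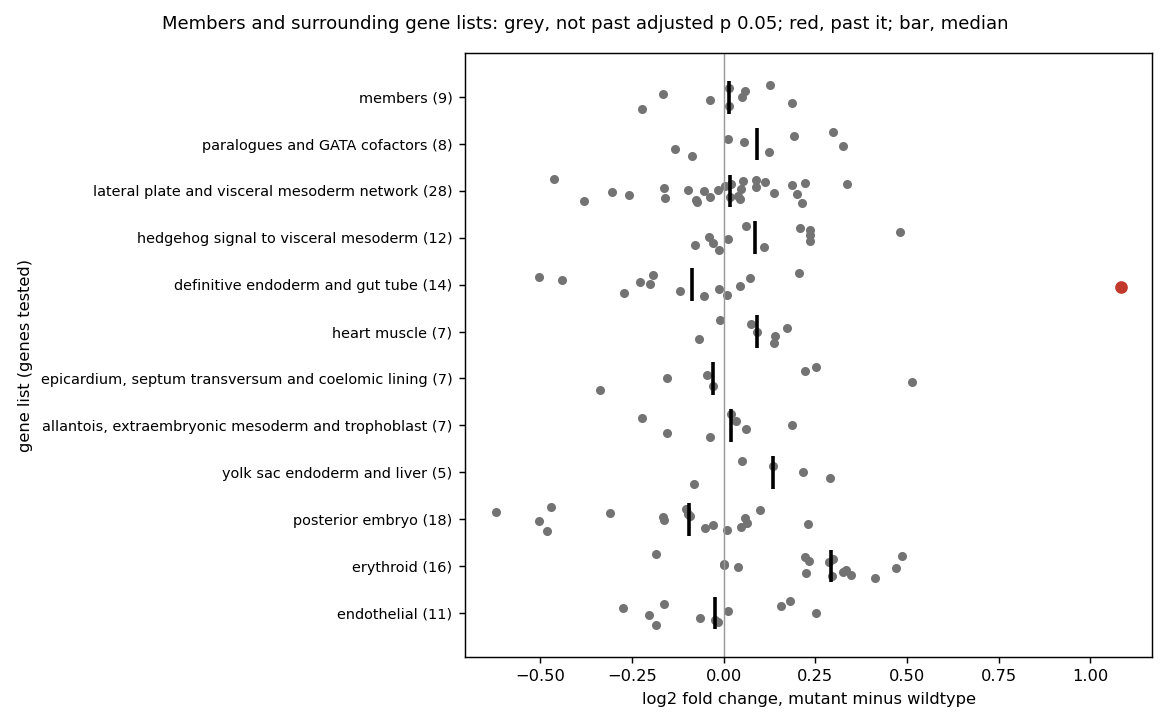
Log2 fold change, mutant minus wildtype (x axis), of each tested gene in the member list and 11 surrounding lists (y axis, with genes tested); points past an adjusted p of 0.05 are red and bars are medians. The members lie between -0.22 and 0.19, and Foxa2 is the 1 red point.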

How the data were processed

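Spots were quantified by the authors with CodeLink Expression Analysis software (version 4.1, per the file headers) as intensity, the mean of the spot and the median of its local background. The deposited series values equalled the scanner's normalized intensity, which is background-subtracted, linear and divided by 1 factor per array, so that the array median is near 1. Here background was corrected with normexp (offset 50), irregular, contaminated and masked spots (339 to 508 per array, 4 of them at member probes) were treated as missing, and the log2 values then went through quantile normalization. Probes above background on at least 3 of 6 arrays, with 2 or more usable spots in each group, entered limma 3.58.1 in R 4.3.3 (lmFit, eBayes, two-sided, threshold 0.05), which was tested on simulated data. The 12 member probes were all tested and were above background on every array where their spot was usable. List sums took the brightest probe of every listed gene on the array, tested or not. In these sums a flagged spot was given the mean of its probe over the other arrays.

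Names came from the platform annotation, updated through the RefSeq table of GRCm38.p6. The sources give no build for the array design, so its coordinates are printed for the promoter windows alone. Members and lists were chosen with earlier results of these data known. The text names every member and Fkbp8, and from the lists described genes past the threshold and up to 4 with the smallest p, without naming every gene this allows. The Y-linked genes are given as a count. Bmp4 was named after its values were seen. Alternatives were other normalizations and background corrections, the deposited values, other filters, flagged spots kept, an intensity trend, array weights, a looser threshold and each array left out.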

Additional observations from a re-analysis of the deposited data

How the results depend on the processing

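Under all 17 alternatives 0 member probes were called, and the count at an unadjusted p under 0.05 stayed between 0 and 2. Foxf2 was higher in mutants in all 16 alternatives that gave it a value (0.16 to 0.25), and Barx1 lower in all 13 (-0.40 to -0.14). Both Gata6 probes, Gata5, Hand1 and Foxf1 at GE124481 also kept their direction. Some alternatives could not move a value, such as the filters and the intensity trend. Barx1 had no fit without mutant b or c, and leaving out mutant a repeated its -0.22 because that spot was already missing. Gata6 at GE1394632 was likewise refitted only without mutant a or wildtype f, whose spots were already missing. Signs near 0 turned as follows. Gata4 was 0.0138 with median centring, which shifts the median of all genes to 0.07. Foxf1 (GE35424) was -0.00837 with cyclic loess and -0.00278 without background correction, and -0.105 to 0.132 with each array left out. Nkx2-3 was -0.00598 with cyclic loess and -0.0522 to 0.107 with each array left out. Tbx20 was -0.0205 at GE1572677 with irregular spots kept, and with each array left out -0.0876 to 0.116 there and -0.00489 to 0.247 at GE120442. The cause was not tested. The median over the members was -0.0198 to 0.105 with each array left out, and was highest without mutant b.

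Over all probes, 26 passed. The count was 12 with median centring, 13 with background-subtracted values, 15 with deposited values, 16 with the filter on all 6 arrays and 11 to 37 with each array left out (11 without mutant b, wildtype d or wildtype f, 14 without wildtype e). No paired analysis was possible because the replicate letters differ between the groups. The Tbx20 and Barx1 probes were dim, and how far this limits what can be seen was not tested. Their SEs were 0.121 and 0.129 (Tbx20) and 0.103 (Barx1), where the brighter Foxf1 probe GE35424 had 0.132.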
